A study of Mus musculus with 6 samples.

Results

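Transcripts of the enzymes that oxidise fatty acids were followed in organoids from mouse small intestine, budding cultures of epithelial crypts in a gel matrix. The genes are 32 named enzymes of mitochondrial and peroxisomal fatty acid oxidation, matched by symbol, of 27179 genes in the deposited table, and all 32 were found. By textbook location, 19 were taken as mitochondrial and 9 as peroxisomal, and 4 (Crat, Acad11, Eci2 and Ech1) are known in both organelles and were counted apart. All organoids were wild type (WT in the labels) and were grown in Intesticult medium in Matrigel. A group of 3 libraries received T3, the active thyroid hormone, at 1e-07 M for 17 h, and the other 3 received its vehicle for the same time. Whether a group's libraries are separate cultures or animals is not said in the labels, and each p-value therefore reflects library-to-library spread that may be technical. The comparison asks which of these transcripts respond to T3.

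Long-chain fatty acids enter mitochondria as carnitine esters and are then shortened in a repeating cycle of dehydrogenation, hydration, a second dehydrogenation and thiolysis. The electrons of the first dehydrogenation pass through electron transfer flavoprotein to the respiratory chain. Peroxisomes run a parallel cycle on very long, branched and bile acid side chains, beginning with an oxidase that makes hydrogen peroxide, and pass shortened chains on to mitochondria. In the small intestine both pathways handle part of the absorbed fat, and their genes are known targets of the fatty acid receptors of the PPAR family. Thyroid hormone is known to raise fatty acid oxidation in liver and muscle.

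Sequences upstream of the members were read from RefSeq (GRCm38.p6), which gave 27 entries for 26 of the 32 genes. Cpt1b, Crat, Acad9, Acaa2, Decr1 and Hsd17b4 had none. The 250 bases before the start are shown for Cpt1a, the member with the largest rise, and for Acadl, the mitochondrial member with the largest fall. The 250 bases before Hadhb are shown because they lie in the gap between Hadhb and Hadha, the genes of both subunits of the trifunctional protein, which point away from each other. Their RefSeq starts are 272 bases apart, and the gene positions in the deposited table leave a gap of 341 bases. The stretches are chr19:3323051-3323300 on the plus strand, chr1:66863310-66863559 on the minus strand and chr5:30155003-30155252 on the plus strand, all 5′ to 3′.
Cpt1a: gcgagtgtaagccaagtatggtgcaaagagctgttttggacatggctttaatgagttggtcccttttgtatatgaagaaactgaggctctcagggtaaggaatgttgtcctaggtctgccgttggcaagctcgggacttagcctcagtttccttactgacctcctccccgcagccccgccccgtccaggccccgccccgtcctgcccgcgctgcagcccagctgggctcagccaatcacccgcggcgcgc
Acadl: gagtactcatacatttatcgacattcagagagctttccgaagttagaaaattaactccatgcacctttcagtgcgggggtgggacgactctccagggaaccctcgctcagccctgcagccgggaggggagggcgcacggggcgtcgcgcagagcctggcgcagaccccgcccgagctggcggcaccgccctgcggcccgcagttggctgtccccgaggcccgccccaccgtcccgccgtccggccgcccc
Hadhb and Hadha: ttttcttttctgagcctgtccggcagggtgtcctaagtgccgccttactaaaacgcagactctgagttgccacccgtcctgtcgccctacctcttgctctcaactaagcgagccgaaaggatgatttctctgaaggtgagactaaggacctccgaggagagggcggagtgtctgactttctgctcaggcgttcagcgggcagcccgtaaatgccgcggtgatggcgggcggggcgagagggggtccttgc

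Entries of 300 bases, from 250 before to 50 after the start, were searched on both strands for the nuclear receptor half-site AGGTCA repeated directly with a spacer of 1 base, an arrangement bound by PPAR receptors, and with a spacer of 4 bases, an arrangement bound by thyroid hormone receptors. Up to 2 mismatches to the 12 fixed letters were allowed, the spacer could be any base, and both motifs share the half-site. The spacer 1 repeat matched 3 of 27 member entries (11.1%) and 3.86% of all 32851 entries, and the spacer 4 repeat 1 of 27 (3.70%) and 3.02%. Median GC content was 60.3% in member entries and 52.7% in all entries. The background was not matched for it, and the difference in matches was not tested. The matched sites follow in the motif's orientation, with letters equal to the motif in capitals. The Echs1 site (chr7:140116492-140116504, minus strand) began 83 bases and the Etfa site (chr9:55512308-55512320, plus strand) 77 bases before the start. The Acox2 site (chr14:8258818-8258830, minus strand) began 10 bases after the start of the downstream of its 2 entries. The Acadvl site (chr11:70015510-70015525, minus strand) was the spacer 4 match and began 97 bases before the start. A match describes letters only, and none was found in the stretches printed above.
Echs1: AGGTCAcgGGTCc
Etfa: AGGgCAaAGGTaA
Acox2: AGGaCAgAGGTgA
Acadvl: gGaTCAccctAGGTCA

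T3 raised 5 of the members and lowered 17, or 22 of 31 tested, beside 44.8% of all genes tested. Calls were made where the adjusted p of limma's test was under 0.05, computed on log2(value + 1), in which values are deposited reads scaled between libraries (normalized reads). To enter, a gene needed 10 normalized reads or more in 3 or more libraries, which 31 members reached. Cpt1b, at 3, 3 and 4 normalized reads with vehicle and 4, 11 and 3 with T3, did not. Among all 13052 genes tested 24.0% were called higher and 20.8% lower, so the 16.1% of members called higher lay below that share and the 54.8% called lower above it. The members were chosen with earlier results of these data known, so these shares only describe them. With equal column totals the shares of all genes were 18.7% higher and 29.7% lower, and 5 members were higher and 20 lower. The median log2 fold change was -0.18 over the members and -0.01 over all genes tested. The libraries of the 2 groups did not overlap at 24 members, or at 54.9% of all genes tested. Of the called members 6 changed at least 2-fold, 2 higher (Cpt1a and Eci3) and 4 lower (Acadl, Acaa2, Acox2 and Acaa1b). A change of less than 1.5-fold was seen at 13 of the 22 called members (59.1%), beside 71.8% of all called genes. The authors' deposited table also has 5 members higher and 17 lower at an adjusted p under 0.05, beside 19.3% and 15.8% of its genes. Both rest on the same libraries.

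**Figure D1:**
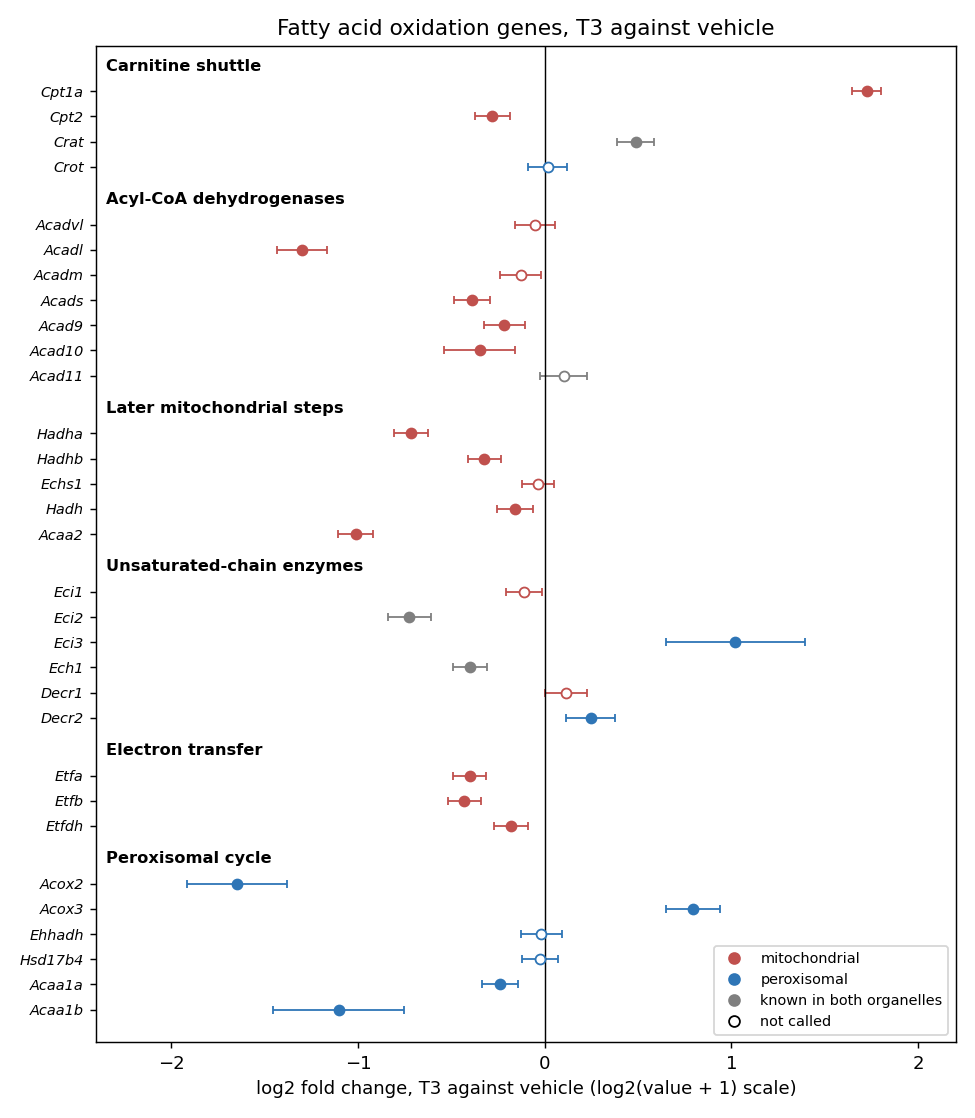
Log2 fold change of each tested member, T3 against vehicle, with its 95% interval from limma, grouped by role. Colour gives the organelle and open symbols were not called. Most mitochondrial members lie left of 0, with Cpt1a alone far to the right at 1.72, and peroxisomal members lie on both sides.

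The mitochondrial members were mostly lower and the peroxisomal members divided. Of 18 mitochondrial members tested, 12 fell (66.7%) and 1 rose (5.56%), with a median log2 fold change of -0.25. Of 9 peroxisomal members 3 fell and 3 rose (33.3% each, median -0.02). The shares of all genes tested were 20.8% lower and 24.0% higher. Of the 4 known in both organelles 2 fell and 1 rose. The difference between the organelles was not tested. Summed per kb of exon, mitochondrial members stood at 43207, 43956 and 44553 normalized reads per kb with vehicle and at 37255, 36851 and 35433 with T3. Peroxisomal members summed to 5397, 5504 and 5702 with vehicle and 5469, 5370 and 5252 with T3. The mitochondrial sums did not overlap between groups, and the peroxisomal sums did. The peroxisomal share of both sums was 11.2% ± 0.133 with vehicle and 12.8% ± 0.0953 with T3 (SD, n = 3).

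Several technical values bear on these numbers. Column totals were 28197080 to 28611883 normalized reads with vehicle and 29510422 to 29974091 with T3, and members held 0.350% to 0.363% and 0.302% to 0.312% of them. The lowest T3 library was replicate 3 at 22 of the 31 tested members, and the lowest vehicle library was replicate 1 at 20. Replicates still lay close together, with a median coefficient of variation of 2.97% with vehicle and 3.44% with T3. Summed enterocyte markers ran from 97476 to 99150 normalized reads with vehicle and from 142146 to 159669 with T3 (9 of 15 tested called higher, 2 lower), and crypt stem cell markers from 72792 to 80893 and from 41917 to 45211 (8 of 12 lower, 1 higher). The part of this shift in the members' changes was not tested, and in bulk RNA fewer cells of a type and less RNA per cell cannot be told apart. Paneth cell markers summed to 61815 to 67104 and 97086 to 123244 (2 of 6 tested higher, none lower). That rise was carried by Itln1, at 32293 ± 1056 and 80652 ± 8932 (SD, n = 3). Mmp7 was also higher, and Lyz1, Defa24, Defa17 and Ang4 were not called. Goblet cell markers summed to 74966 to 92958 and 64217 to 102610 (1 of 7 higher) and enteroendocrine markers to 11840 to 15275 and 10509 to 14665 (1 of 7 lower). Tuft cell markers summed to 330 to 442 and 269 to 333 (2 of 4 lower). Beside these counts, 24.0% of all genes tested were called higher and 20.8% lower.

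Of the markers of other tissues, several were at 0 and the rest were low, and their part in the members' changes was not tested. Fibroblast and muscle markers summed to 309 to 389 normalized reads with vehicle and 255 to 327 with T3, carried by Vim and Pdgfrb, neither of them called. Immune markers summed to 129 to 163 and 395 to 414, carried by Itgam, which rose 3.59-fold from 97.3 ± 15.2 to 349 ± 7.55 (SD, n = 3), beside Cd68 at 47.0 ± 4.00 and 49.3 ± 11.6, while Adgre1 was listed at 0 in every library. Endothelial markers summed to 27 to 47 and 19 to 26, carried by Pecam1 and Vwf, with Cdh5 and Kdr at 0. Adipocyte, muscle and liver markers, from tissues rich in these enzymes, summed to 30 to 46 and 26 to 44, carried by Alb and Cyp2e1, with Adipoq and Ckm at 0.

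In the carnitine shuttle the entry enzyme rose and the enzyme behind it fell. Cpt1a, the outer membrane transferase that commits long-chain fatty acids to mitochondria (gene ID 12894, mm10 chromosome 19, 3323301 to 3385733, 19 exons), stood at 3230, 3303 and 3233 normalized reads with vehicle and 10867, 10604 and 10792 with T3. Every T3 library was above every vehicle library, and Cpt1a rose 3.30-fold (log2 1.72 ± 0.03 SE, limma adjusted p = 1.48e-09). Cpt2, which turns the carnitine ester back into acyl-CoA inside the mitochondrion (gene ID 12896, chromosome 4, 107903982 to 107923589), stood at 2905, 2789 and 2945 with vehicle and 2461, 2344 and 2309 with T3, and fell 1.21-fold (log2 -0.28 ± 0.04 SE, adjusted p = 0.000534). The ratio of Cpt1a to Cpt2 per kb was 0.600 to 0.647 with vehicle and 2.41 to 2.55 with T3, so the gene with the lower level per length changed from Cpt1a to Cpt2.

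Cpt1a stood far above Cpt1b, the muscle form, in these values, but the low value of Cpt1b has a limit of counting. Of its exon length 94.8% is shared on the same strand with Gm44502, listed at 0 in every library, and reads that fall on both genes cannot be told apart, so the value is uncertain. Crat, which moves acetyl groups on and off carnitine, rose 1.40-fold from 1099 ± 34.0 to 1541 ± 16.6 (SD, n = 3), and 52 bases of its exons overlap Dolpp1 on the opposite strand. Crot, the peroxisomal transferase that exports shortened chains, was at 1923 ± 49.9 and 1945 ± 88.4 with overlapping groups (log2 fold change 0.02, 95% interval -0.09 to 0.12, adjusted p = 0.816).

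Of the 7 acyl-CoA dehydrogenases, the enzymes of the first step, 4 fell (57.1%, against 20.8% of all genes) and none rose. Fold changes are given by chain-length class, and differences between the classes were not tested. Acadl, the long-chain dehydrogenase (gene ID 11363, chromosome 1, 66830853 to 66863267, 11 exons), stood at 4073, 4025 and 4335 with vehicle and 1715, 1804 and 1538 with T3. The groups were far apart, and Acadl fell 2.46-fold (log2 -1.30 ± 0.06 SE, adjusted p = 2.32e-07). Of its exon length 26.6% overlaps the exons of an unnamed gene on the opposite strand, listed at 0 in every library, and without strand reads of the pair cannot be told apart. Smaller overlaps on the opposite strand, with genes at or near 0, cover 8.99% of the exon length of Eci3, 6.07% of Acox3, 2.01% of Hadha and 1.85% of Acad11. Acadvl, the very long-chain enzyme of the inner membrane, was at 4854, 4923 and 5059 with vehicle and 4835, 5016 and 4462 with T3, with overlapping groups (log2 fold change -0.05, 95% interval -0.16 to 0.05). Acadm, the medium-chain enzyme, was at 3231, 3198 and 3233 with vehicle and 3097, 3000 and 2749 with T3. Its groups did not overlap but it just missed the threshold (log2 fold change -0.13, 95% interval -0.24 to -0.02, adjusted p = 0.0525). It was called in 5 alternatives, such as upper-quartile scaling (adjusted p = 0.0102).

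Acads, the short-chain enzyme, fell 1.31-fold from 2148 ± 63.3 to 1639 ± 32.7 (SD, n = 3; adjusted p = 6.22e-05). Per kb, Acadl stood at 2190 normalized reads beside 2292 for Acadvl and 1746 for Acadm with vehicle. With T3 it stood at 891 beside 2211 and 1598. The ratio of Acadl to Acadm per kb was 1.23 to 1.31 with vehicle and 0.540 to 0.586 with T3. Among the less typical members, Acad9, better known for assembling respiratory complex I, fell 1.16-fold from 2110 ± 59.3 to 1817 ± 98.2, and 13.0% of its transcript words (runs of 50 bases) occur in other genes. Acad10 fell 1.27-fold from 434 ± 30.7 to 341 ± 25.2, and it shares 16.8% of its words with its neighbour Acad12. Acad11 was at 1074 ± 63.7 and 1151 ± 39.6 and was not called (adjusted p = 0.18).

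The steps after dehydrogenation fell at 4 of 5 genes, beside 20.8% of all genes tested. Hadha, the trifunctional protein subunit that holds hydratase and 3-hydroxyacyl-CoA dehydrogenase activity (gene ID 97212, chromosome 5, 30118304 to 30154980, 20 exons), stood at 9190, 9240 and 9877 with vehicle and 5747, 5865 and 5609 with T3. It fell 1.64-fold (log2 -0.72 ± 0.04 SE, adjusted p = 9.15e-07). Hadhb, its thiolase partner across the gap printed above (gene ID 231086, 30155322 to 30184583), stood at 2279, 2315 and 2239 with vehicle and 1781, 1838 and 1843 with T3. It fell 1.25-fold (log2 -0.32 ± 0.04 SE, adjusted p = 0.000133), less than Hadha by these values, and the difference was not tested. The ratio of Hadha to Hadhb per kb was 2.03 to 2.24 with vehicle and 1.55 to 1.64 with T3. Of the Hadhb transcript words 18.1% also occur in Gm13910, a processed pseudogene, and its values carry that uncertainty.

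Acaa2, the soluble thiolase of shorter chains (gene ID 52538, chromosome 18, 74779212 to 74806207, 10 exons), stood at 6508, 6615 and 6761 with vehicle and 3447, 3164 and 3252 with T3. It fell 2.02-fold (log2 -1.01 ± 0.04 SE, adjusted p = 1.18e-07). Hadh, the soluble 3-hydroxyacyl-CoA dehydrogenase and the member with the highest level per kb in both groups, stood at 14680, 15565 and 15269 with vehicle and 13975, 13722 and 13012 with T3. Its fall was small, 1.12-fold (adjusted p = 0.0127), and was not called without vehicle replicate 2 (adjusted p = 0.0559). Echs1, the short-chain hydratase, was at 5061 ± 116 and 4934 ± 130 (SD, n = 3) with overlapping groups (log2 fold change -0.04, 95% interval -0.12 to 0.05), and was called lower only with equal column totals among the alternatives (adjusted p = 0.0453).

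**Figure D2:**
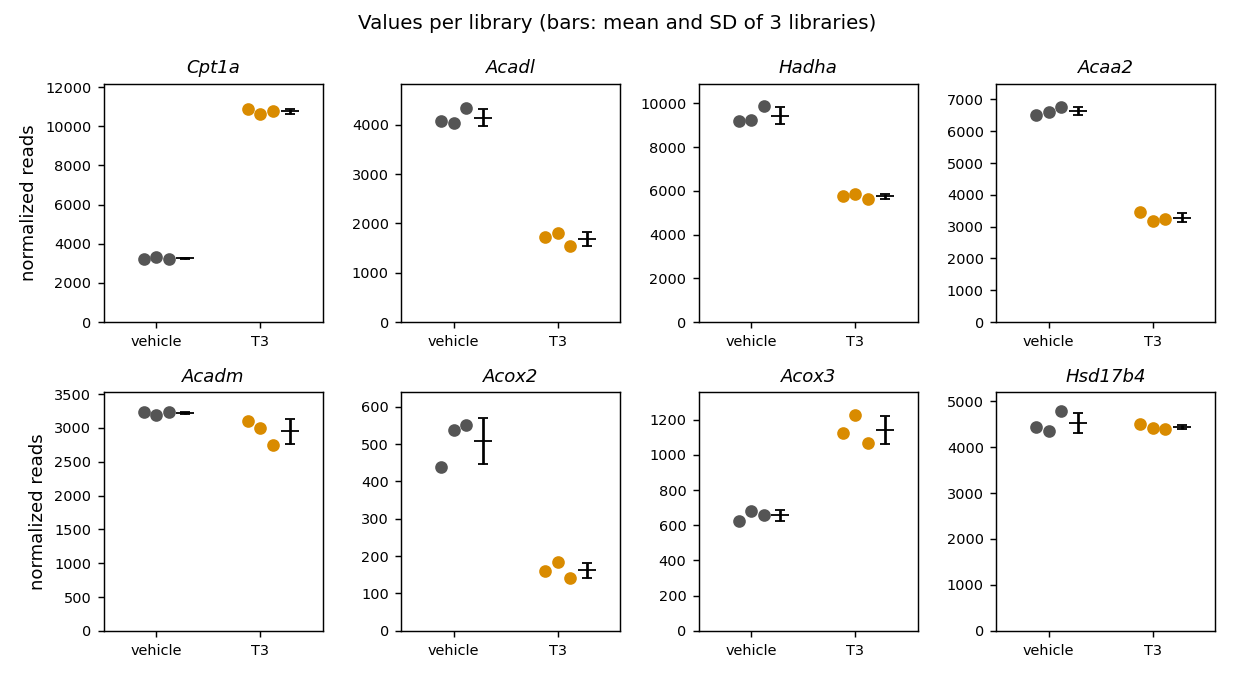
Normalized reads of 8 members in each of the 3 vehicle and 3 T3 libraries, with the mean and SD beside them, each axis from 0. Cpt1a and Acox3 are higher in every T3 library, Acadl, Hadha, Acaa2 and Acox2 lower in every T3 library, and Hsd17b4 overlaps between groups.

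All 3 genes of the electron transfer flavoprotein route fell, beside 20.8% of all genes tested, and both subunits fell by similar folds. Etfa, the alpha subunit (gene ID 110842, chromosome 9, 55454436 to 55512243), stood at 7319, 7346 and 7020 with vehicle and 5597, 5519 and 5299 with T3, a fall of 1.32-fold. Etfb, the beta subunit (gene ID 110826, chromosome 7, 43444143 to 43457782), stood at 3346, 3434 and 3555 with vehicle and 2622, 2541 and 2507 with T3, a fall of 1.35-fold. Of the Etfb transcript words 43.8% also occur in Gm45233, so the values of Etfb and its ratio to Etfa are uncertain. No other gene of the deposited table was found to share exon bases with Etfb. The ratio of Etfa to Etfb per kb was 1.10 to 1.22 with vehicle and 1.18 to 1.21 with T3, overlapping. Etfdh, the membrane dehydrogenase that passes these electrons to ubiquinone, fell 1.13-fold from 3810 ± 120 to 3361 ± 90.1 (SD, n = 3; limma adjusted p = 0.00526).

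The enzymes that prepare unsaturated chains for the cycle went both ways. Eci2, a delta3,delta2-enoyl-CoA isomerase known in both organelles (gene ID 23986, chromosome 13, 34977748 to 34994144), stood at 1417, 1524 and 1564 with vehicle and 918, 904 and 899 with T3, a fall of 1.65-fold (log2 -0.73 ± 0.05 SE). Its neighbour Eci3, a peroxisomal relative 13938 bases away on the same strand (34946614 to 34963809), was low and stood at 28, 36 and 32 with vehicle and 68, 63 and 66 with T3, a rise of 2.03-fold (log2 1.02 ± 0.17 SE, adjusted p = 0.000839). Both changes were called, in opposite directions. Eci3 shares 8.70% of its transcript words with Eci2, and Eci2 remained 92.0% ± 0.24 of their sum per kb with T3 (97.5% ± 0.234 with vehicle, SD, n = 3).

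Ech1, the dienoyl-CoA isomerase, fell 1.32-fold from 3829 ± 69.4 to 2904 ± 97.6. Eci1, the mitochondrial isomerase, was at 2108, 2240 and 2289 with vehicle and 2052, 2049 and 2049 with T3, without overlap but not called (log2 fold change -0.11, 95% interval -0.21 to -0.01, adjusted p = 0.0656). It was called with upper-quartile scaling (0.0137), with equal column totals (0.00946) and without vehicle replicate 1 (0.0208). Of the dienoyl-CoA reductases, Decr2, the peroxisomal form, rose 1.19-fold from 1104 ± 49.4 to 1310 ± 81.5, and Decr1, the mitochondrial form, was at 2192 ± 41.0 and 2375 ± 149 and was not called (adjusted p = 0.0978). Decr1 was called higher without T3 replicate 3 (adjusted p = 0.00993).

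The oxidases that open the peroxisomal cycle moved in opposite directions. Acox2, the oxidase of branched chains and bile acid intermediates (gene ID 93732, chromosome 14, 8225511 to 8259019, 15 exons), stood at 438, 537 and 550 with vehicle and 160, 183 and 142 with T3. It fell 3.13-fold (log2 -1.65 ± 0.12 SE, adjusted p = 4.32e-06), the largest fall among the members. Acox3, an oxidase of methyl-branched chains such as pristanoyl-CoA (gene ID 80911, chromosome 5, 35583060 to 35613801, 19 exons), stood at 623, 684 and 661 with vehicle and 1125, 1225 and 1070 with T3. It rose 1.74-fold (log2 0.80 ± 0.06 SE, adjusted p = 9.25e-06). Acox2 made up 53.7% ± 2.13 of the sum of both per kb with vehicle and 17.5% ± 0.857 with T3 (SD, n = 3).

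The bifunctional enzymes in the middle of the peroxisomal cycle gave no call. Ehhadh, the L-bifunctional enzyme, was at 2661, 2679 and 2760 with vehicle and 2808, 2698 and 2503 with T3, and Hsd17b4, the D-bifunctional enzyme, at 4431, 4360 and 4782 and at 4494, 4423 and 4394. Their 95% intervals of the log2 fold change were -0.13 to 0.09 and -0.12 to 0.07, and the groups overlapped in both. Ehhadh made up 34.8% ± 0.717 of their sum per kb with vehicle and 34.9% ± 1.09 with T3 (SD, n = 3).

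The peroxisomal thiolases, which close the cycle, both fell. Acaa1a (gene ID 113868, chromosome 9, 119341294 to 119350295) fell 1.18-fold from 2085, 2148 and 2219 to 1801, 1791 and 1870 (adjusted p = 0.00143). Acaa1b (gene ID 235674, 119148043 to 119157093) fell 2.15-fold from 199, 209 and 202 to 100, 114 and 73 (adjusted p = 0.000348). The 2 genes are close copies: 30.5% of the Acaa1b words of 50 bases occur in Acaa1a, so reads could have been split or left out, and the values of Acaa1b are uncertain. Of the Acaa1a words 12.4% occur in Acaa1b. Acaa1a made up 90.9% ± 0.281 of their sum per kb with vehicle and 94.7% ± 1.19 with T3 (SD, n = 3).

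**Figure D3:**
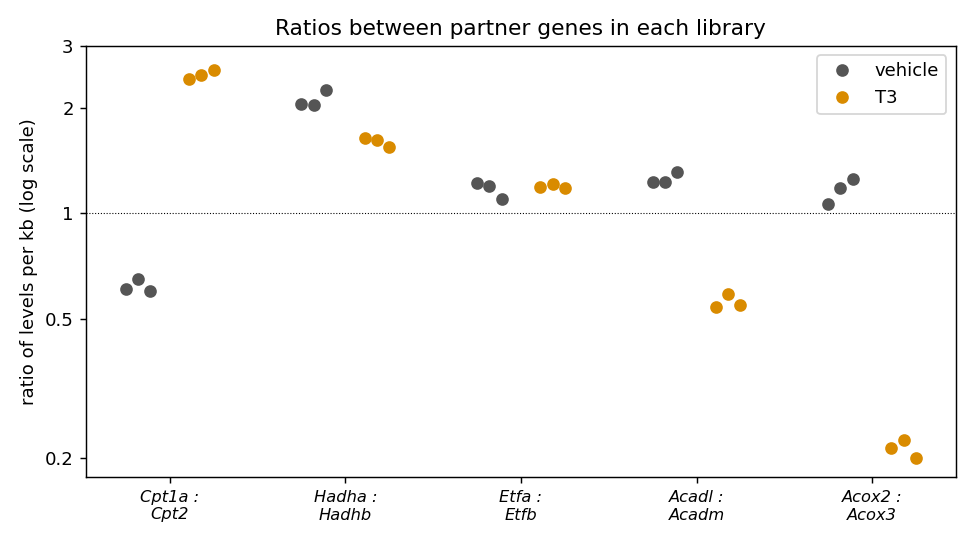
Ratio of levels per kb between partner genes in each library, on a log axis, with the dotted line at 1. Cpt1a to Cpt2 crosses 1 upwards, Acadl to Acadm and Acox2 to Acox3 cross it downwards, Hadha to Hadhb falls but stays above 1, and Etfa to Etfb overlaps between the groups.

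Per kb of exon, the order of the members changed at a few places. Hadh was the highest with 8821 normalized reads per kb with vehicle and 7889 with T3, followed in both groups by Etfa at 4937 and 3737. Acaa2 went from rank 3 to rank 8 (4419 to 2192) and Acadl from rank 9 to rank 18 (2190 to 891), whereas Cpt1a went from rank 20 to rank 6 (757 to 2500). Acox2 stood at 193 with vehicle and 61.5 with T3, and Eci3 at 23.8 and 48.8. Cpt1a supplied 1.72% ± 0.0323 of the mitochondrial sum with vehicle and 6.85% ± 0.205 with T3 (SD, n = 3), and without it that sum was 1.27 times higher with vehicle than with T3, beside 1.20 times with it.

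**Figure D4:**
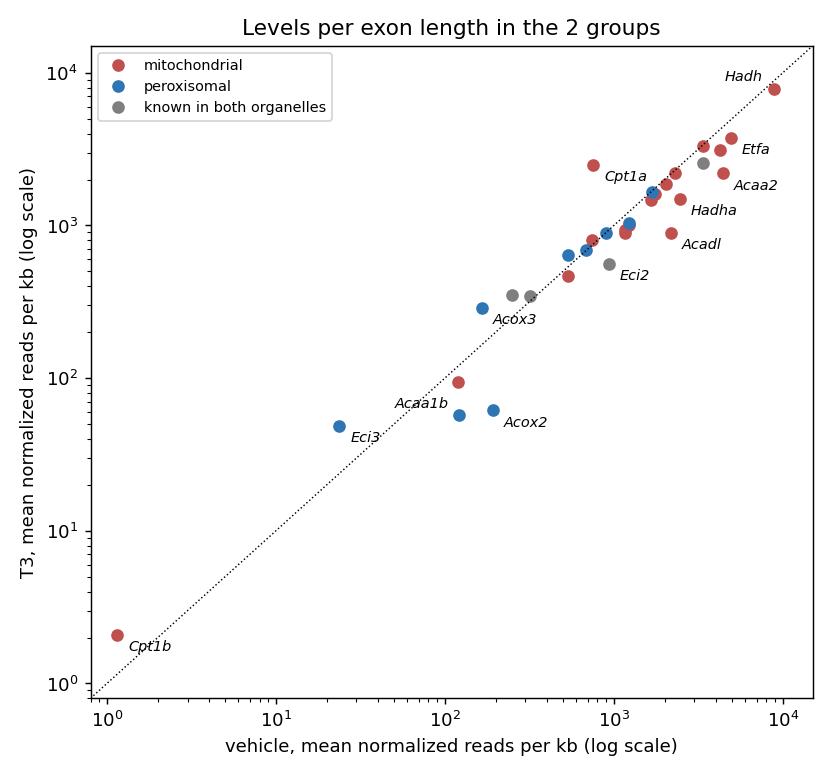
Mean normalized reads per kb of exon for the 32 members, vehicle on the x axis and T3 on the y axis, both log scaled, with equality as a dotted line and colour for the organelle. Cpt1a lies well above the line (757 and 2500), Acadl, Acaa2, Hadha and Acox2 below it, and most members lie near it.

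Genes around the pathway were read from 8 lists that hold no member. Of their 99 tested genes 30 were called higher and 31 lower, or 30.3% and 31.3%, against 24.0% and 20.8% of all genes. The lists were chosen with earlier results of these data known, so these shares only describe them. With equal column totals 24 of them were higher and 40 lower. Steps that bring fat and carnitine to the mitochondrion went both ways. In uptake and activation 5 of 17 rose and 6 fell: Acsl1, an acyl-CoA synthetase, rose 1.52-fold, while the fatty acid transporters Slc27a2 and Slc27a1 fell 1.37-fold and 1.56-fold and Acss1, which activates acetate in mitochondria, fell 2.14-fold. In carnitine supply 2 of 6 rose and 3 fell. Slc25a20, the carrier that brings carnitine esters across the inner membrane between Cpt1a and Cpt2, stood at 1033, 1045 and 962 with vehicle and 361, 419 and 366 with T3, a fall of 2.65-fold (adjusted p = 4.8e-07). Slc22a5, the cell's carnitine importer, rose 1.37-fold, and Aldh9a1, an enzyme of carnitine synthesis, and Slc22a4 fell 1.17-fold and 1.48-fold.

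In the control of Cpt1a by malonyl-CoA 2 of 8 genes rose and 1 fell, or 25.0% and 12.5%, against 24.0% and 20.8% of all genes. Prkaa2, a catalytic subunit of AMP-activated kinase, rose 1.87-fold from 1420 ± 138 to 2651 ± 122 (SD, n = 3), Prkag1, a regulatory subunit of it, rose 1.16-fold, and Mlycd, which removes malonyl-CoA, fell 1.16-fold. Other dehydrogenases that hand electrons to electron transfer flavoprotein, or are related to those that do, fell at 4 of 7 genes (57.1%). None of them rose, and the median log2 fold change was -0.36. Acadsb and Ivd, of branched-chain amino acid breakdown, fell 1.55-fold and 1.31-fold, and Gcdh, of lysine breakdown, fell 1.15-fold. Of ketone body genes 4 of 7 rose (57.1%) and 2 fell (28.6%). Slc16a1, a carrier of ketone bodies and lactate, rose 1.62-fold, Slc16a6 1.46-fold and Oxct1, which starts ketone body use, 1.34-fold.

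Peroxisomal genes outside the members also divided. Of 18 tested genes listed as other peroxisomal lipid enzymes and transporters 6 rose and 7 fell. These are 33.3% and 38.9%, against 24.0% and 20.8% of all genes. That list also holds Acsf3 and Abcd4, better known from elsewhere in the cell, and neither was called. Abcd3, a peroxisomal membrane transporter that brings fatty acyl-CoA into the organelle, rose 1.67-fold, while Cat, which removes the hydrogen peroxide of the oxidases, fell 1.43-fold and Acot4, an acyl-CoA thioesterase, 2.13-fold. Of 16 peroxisome assembly genes 2 rose and 3 fell, a share near that of all genes for falls and below it for rises, and the named changes were small: Pex13 fell 1.19-fold and Pex5 1.14-fold, and Pex19 rose 1.09-fold.

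Among 20 regulators 9 rose and 5 fell, or 45.0% and 25.0%, against 24.0% and 20.8% of all genes. Ppara, the fatty acid receptor that drives these genes in liver, was at 2054, 1902 and 2020 with vehicle and 2097, 1898 and 1798 with T3, with overlapping groups (log2 fold change -0.05, adjusted p = 0.558). Its relative Ppard stood at 963, 1025 and 1022 with vehicle and 11217, 11131 and 10461 with T3, and the coactivator Ppargc1a at 287, 351 and 269 and at 1606, 1717 and 1386. Every T3 library was above every vehicle library for both, with rises of 10.9-fold and 5.19-fold. Their part in the members' changes was not tested. Hnf4g, a nuclear receptor of enterocytes, rose 1.53-fold, and the thyroid hormone receptor gene Thra fell 1.66-fold.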

How the data were processed

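RNA sequencing libraries of 3 vehicle and 3 T3 organoid samples were grouped by title. The submitters' processing notes list STAR, Subread and DESeq2, with no version or role, and the build is mm10, per the file headers. No source used here gives the strand setting of read counting. The authors' deposited sample columns are a score: between-library scaled reads, rounded, rather than raw counts, since the deposited mean column equalled their mean to within 0.833 in every gene. Raw depth was not recovered here, so precision comes from the spread of replicates. Log2 fold changes, p-values and exon lengths also stand in the authors' deposited table.

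The main test was limma 3.58.1 (statmod 1.5.0 for the robust version) in R 4.3.3 on log2(value + 1) with a mean-variance trend, no replicate block and Benjamini-Hochberg adjustment over 13052 genes. A filter required 10 normalized reads or more in 3 or more libraries. Fold changes are 2 to the power of limma's log2 difference and understate the change of low genes. The test was checked on simulated data, in which far fewer genes changed than were called here. Tables were made in Python 3.11.15. Alternatives were scaling, pseudocount, filter, variance model, threshold, replicate block and leaving out each library. Libraries of a group differed (mean chi-square per gene at least 4.71) and were kept apart. That value was computed on scaled reads, and without raw depth it cannot be set against sampling noise.

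Shared sequence between genes was measured in GENCODE M21 transcripts (GRCm38). Members and lists were chosen with earlier results of these data known. Named genes are all members, up to 4 called genes with the smallest p-value in each pathway list, Ppara, Ppard and Ppargc1a, and both genes of marker lists with at most 2 tested. Some genes that this rule takes are not reported here. Protein sequences were not used here.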

Additional observations from a re-analysis of the deposited data

How the results depend on the processing

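Across 16 alternatives 23 of the 31 tested members kept their direction and their side of the threshold, and the counts of peroxisomal members, 3 higher and 3 lower, were the same in each. Leaving out single libraries gave 5 to 6 members higher and 16 to 18 lower, 1 to 2 mitochondrial members higher (2 without T3 replicate 3, where Decr1 was added) and 11 to 13 lower, and 4497 to 5895 of all genes called against 5851. Upper-quartile scaling and equal column totals gave 19 and 20 members lower, beside 28.4% and 29.7% of all genes tested. These scalings moved the median log2 fold change of all genes by -0.06 and -0.07. Signs turned only for uncalled members: Crot was at -0.0508 with equal column totals, -0.0405 with upper-quartile scaling, -0.00634 without T3 replicate 1, -0.000924 without T3 replicate 3 and -0.00452 without vehicle replicate 3, Ehhadh at 0.0279 without T3 replicate 3 and Hsd17b4 at 0.0135 without vehicle replicate 3. With single libraries left out these values ran from -0.00634 to 0.0537 for Crot, from -0.055 to 0.0279 for Ehhadh and from -0.0531 to 0.0135 for Hsd17b4. The cause was not tested. Acadm was also called with the filter of 50 normalized reads (adjusted p = 0.0494), robust variance (0.0446), equal column totals (0.00554) and without T3 replicate 1 (0.0388). The replicate block left 5 members higher and 17 lower and called 5405 of all genes. Deviations of same-numbered libraries correlated at -0.0701, 0.0278 and -0.0568 and no vehicle library correlated best with its own number. With 3 libraries per group and values this small, they cannot decide whether the numbers pair the samples. Values below about 10 normalized reads, such as those of Cpt1b, were too low to test.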
